A study of Homo sapiens with 2 samples.

Results

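Glycosyltransferases of the sialyl, fucosyl, GalNAc and related families were followed in H1993 cells, an established human lung cancer line with amplification of MET, the gene of a receptor tyrosine kinase. The 81 genes were taken from the 18944 symbols of the deposited mRNA-seq count table by their names alone, as the symbols of 12 families: GALNT, ST3GAL (ST3GAL2 to ST3GAL6), ST6GAL, ST6GALNAC, ST8SIA, FUT, B3GNT, B3GALT, B4GALT, B4GALNT, MGAT and A4GALT. There was 1 library of a derivative resistant to PHA665752, an inhibitor of the MET kinase, and 1 library of the parental line. The derivative had been selected by raising the drug from 1 nM to 1 µM, was kept in 1 µM, and spent 1 week without drug before experiments. The labels give PHA665752 as the treatment of the resistant library and DMSO as that of the parental one; the presence of drug at RNA extraction is not given there. Both were grown in RPMI-1640 with serum, and the labels do not say whether the derivative is a clone.

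These enzymes sit mostly in the Golgi and add one sugar at a time to proteins and lipids passing through it. GALNT enzymes begin mucin-type O-glycans by attaching GalNAc to serine or threonine, MGAT enzymes begin the branches of N-glycans, and B3GNT, B3GALT and B4GALT enzymes lengthen chains. Sialyltransferases and fucosyltransferases then cap the ends, and on lipids the same chemistry makes gangliosides, globosides and lacto-series glycosphingolipids. The resulting surface glycans are known in epithelial cancers as ligands of selectins and galectins and as modifiers of growth factor receptors.

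The genes with the widest differences were GALNT13, ST3GAL5 and B4GALNT3, lower in the resistant library, and ST6GALNAC3, MGAT4A and A4GALT, higher in it. Genes entered the comparison with 1 count or more per 1000000 counts (CPM) in either library, as 51 of the 81 did. Of the other 30, 10 had 0 counts in both libraries and none had more than 11 in either. A call needed a log2 ratio, resistant over parental, of 1 or more in size and an exact 95% counting interval that excluded 0. By this rule 6 of the 51 were at least 2-fold higher in the resistant library, against 12.1% of the 12245 genes tested over the whole table. At least 2-fold lower were 9 of the 51, against 8.29% of all tested genes. The shares of the tested glycosyltransferases were 11.8% higher and 17.6% lower, their median log2 ratio was -0.16, and the median of all tested genes was 0.00. The higher share was thus close to that of all genes. Of the 15 called genes, 4 (GALNT13, ST3GAL5, B3GNT4 and ST6GALNAC3) were under 1 CPM in 1 library and entered through the other, which fixed their direction though not its size. With 1 library per group no difference has a replicate check and none is tested, so every value describes these libraries and every interval covers counting error only. Each library sums over a culture, so fewer cells with a transcript and less of it per cell cannot be told apart.

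**Figure D1:**
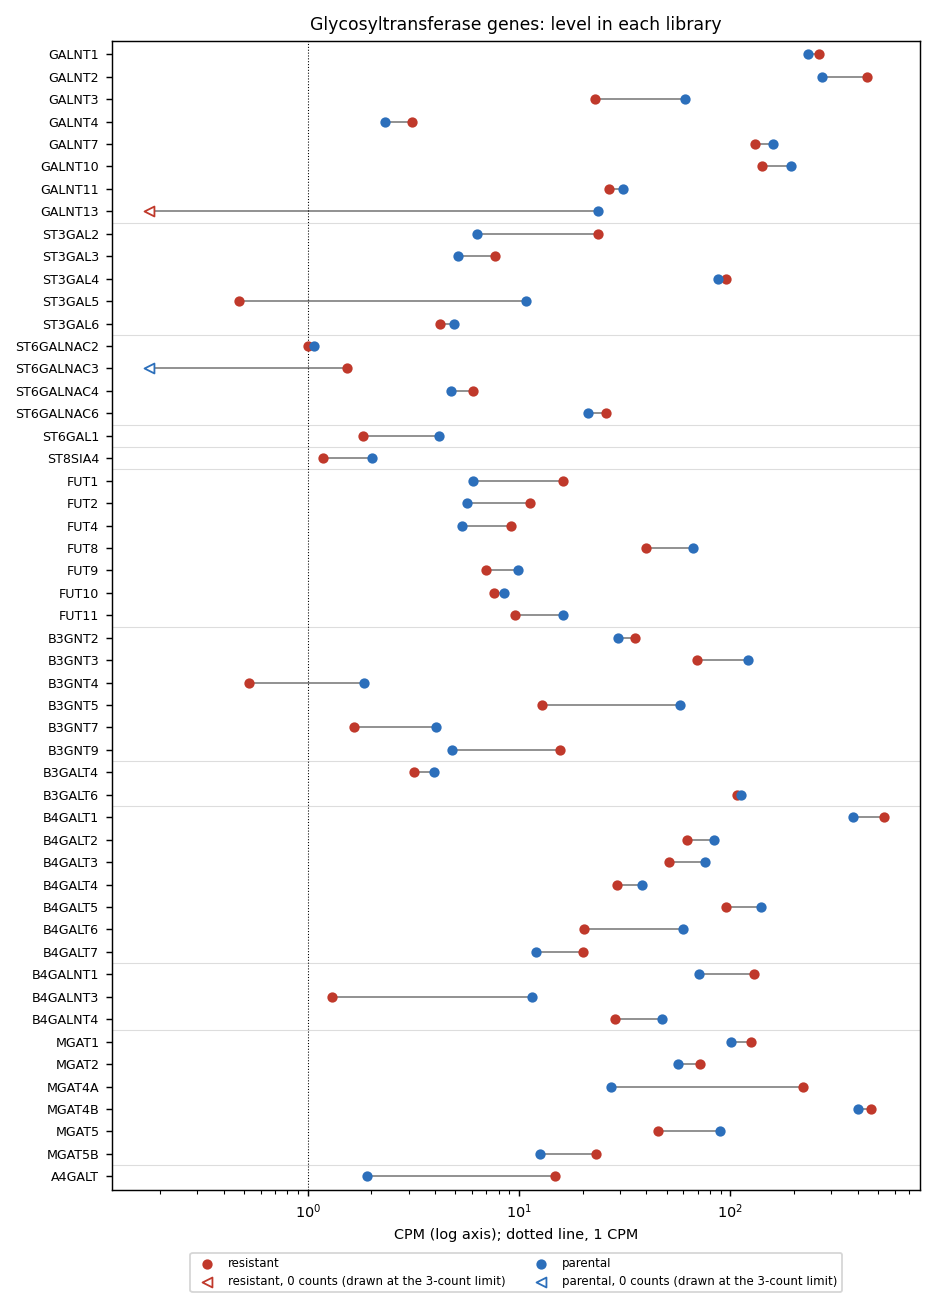
CPM on a log axis for the 51 tested glycosyltransferases, by family, with the resistant library in red and the parental library in blue; an open triangle marks 0 counts, drawn at the limit of 3 counts. GALNT13 and ST3GAL5 show the widest gaps on the low side of the resistant library, and MGAT4A and A4GALT wide gaps on its high side.

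Levels of different genes were compared per length. The deposited log2 values behave as log2 of a per-length level plus 1: the level (2 raised to the deposited value, minus 1) gave a length for each gene when set against its share of the library's counts. Over 10256 genes with at least 50 counts in both libraries, 96.3% of the lengths agreed between the libraries within 5% of their median ratio. For 65.7% of 10087 matched genes the length lay within 5% of that of the closest GENCODE v29 transcript of the gene. A gene with many transcripts meets this more easily, and the share that unrelated lengths would reach was not computed.

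Enzymes that act on lactosylceramide, the branch point of most glycosphingolipids, diverged in direction. A4GALT, which makes the globo-series lipid Gb3 from it, had 250 counts (14.7 CPM) in the resistant and 32 counts (1.90 CPM) in the parental library, 7.75-fold higher (95% counting interval 5.35 to 11.6). ST3GAL5, which makes the ganglioside GM3 from it, had 8 counts (0.471 CPM) in the resistant and 182 (10.8 CPM) in the parental library, 22.9-fold lower (11.4 to 53.9). B3GNT5, which starts the lacto series, had 217 counts (12.8 CPM) in the resistant and 973 (57.8 CPM) in the parental library, 4.52-fold lower (3.90 to 5.26). The transcript of the globo enzyme was thus higher, and those of the GM3 and lacto enzymes lower, in the resistant library. The lipids themselves were not measured here.

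The promoters of these genes are shown because the enzymes share an acceptor and moved in opposite directions. Each is the 250 bases before the RefSeq start on GRCh38.p14, with GC boxes (GGGCGG on either strand, copies may overlap) in capitals. A4GALT lies at chr22:42720871-42721120 on the minus strand, ST3GAL5 at chr2:85888991-85889240 on the minus strand and B3GNT5 at chr3:183253003-183253252 on the plus strand.
A4GALT: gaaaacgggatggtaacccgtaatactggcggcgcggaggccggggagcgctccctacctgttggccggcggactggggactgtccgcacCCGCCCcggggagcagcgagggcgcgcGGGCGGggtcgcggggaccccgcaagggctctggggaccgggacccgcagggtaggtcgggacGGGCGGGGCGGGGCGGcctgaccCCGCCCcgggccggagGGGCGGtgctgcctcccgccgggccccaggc
ST3GAL5: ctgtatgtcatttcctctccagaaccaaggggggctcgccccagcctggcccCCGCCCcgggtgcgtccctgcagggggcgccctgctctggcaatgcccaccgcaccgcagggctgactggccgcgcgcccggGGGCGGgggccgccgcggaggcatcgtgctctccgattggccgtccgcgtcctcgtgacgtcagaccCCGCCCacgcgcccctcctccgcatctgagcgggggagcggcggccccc
B3GNT5: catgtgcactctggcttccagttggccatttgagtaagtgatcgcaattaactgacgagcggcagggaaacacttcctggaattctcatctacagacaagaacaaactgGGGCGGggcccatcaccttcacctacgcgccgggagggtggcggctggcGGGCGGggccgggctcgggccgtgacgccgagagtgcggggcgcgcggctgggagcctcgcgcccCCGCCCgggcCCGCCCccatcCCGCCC
The windows hold 7 GC boxes in A4GALT, 3 in ST3GAL5 and 5 in B3GNT5, and 42.3% of all 27305 RefSeq promoter windows of this length hold at least 1. Their G and C content was 79.2%, 76.0% and 68.0%, against a median of 58.0% over all windows. Over the 58 genes of the 12 families with a window, the median was 67.0%, and 63.8% held a GC box. Over the 30 tested genes short of the rule, it was 68.4%, and 66.7% held a GC box. The letters CACCTG, the E-box bound by ZEB and SNAI repressors, were in 0 of the 3 windows on either strand and in 17.5% of all windows. Over the called genes with a window it was in 1 of 3 higher genes (FUT1) and in 3 of 6 lower ones (GALNT13, GALNT3 and B3GNT7). The AP-1 motif TGANTCA was likewise in 0 of the 3, and in 6.60% of all windows. For the TEAD motif CATTCC the share of all windows was 11.9%, with 0 of the 3 here. The TATA box TATAAA was in 11.1% of all windows and in 0 of these. The deposited table gives 1 value per gene, so it does not show which start site was used.

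Around that branch point, the transcript of an enzyme that makes lactosylceramide was lower. B4GALT6 had 344 counts (20.3 CPM) in the resistant and 1008 (59.9 CPM) in the parental library, 2.96-fold lower (2.61 to 3.35). B4GALT5, the other lactosylceramide synthase, was at 95.9 CPM in the resistant and 139 CPM in the parental library, a log2 ratio of -0.54 that is short of the rule. Beyond GM3, B4GALNT1, which makes the gangliosides GM2 and GD2, was at 129 and 70.9 CPM in the resistant and parental libraries, a log2 ratio of 0.86. B3GALT4, which makes GM1, was at 3.18 and 3.98 CPM. ST8SIA1, the GD3 synthase, had 5 counts in the resistant and 2 in the parental library, too few to be tested. Of the 15 glycosphingolipid enzymes among the 81 genes, 10 were tested, 3 were higher, 3 lower, and the median log2 ratio was -0.02. Over all tested genes 12.1% were higher and 8.29% lower.

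Among the other sialyltransferases ST3GAL2 and ST6GALNAC3 were higher and ST6GAL1 was lower. ST3GAL4, which caps galactose on N-glycans and on selectin ligands, was at 95.1 CPM in the resistant and 87.0 CPM in the parental library. On the per-length scale it made up 83.9% of the summed level of the 5 ST3GAL genes in the resistant library and 83.0% in the parental one. ST3GAL2, which sialylates the galactose ends of gangliosides and O-glycans, was higher, with 400 counts (23.6 CPM) in the resistant and 106 (6.30 CPM) in the parental library. That is 3.74-fold (3.01 to 4.68). ST3GAL3 and ST3GAL6 were short of the rule, with log2 ratios of 0.58 and -0.22.

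Of the enzymes that add sialic acid in other linkages, ST6GALNAC3, which acts on sialylated O-glycans and gangliosides, had 26 counts in the resistant and 0 in the parental library. Against the 3 counts that a count of 0 allows, this is 8.60-fold higher. The near end of its exact interval was lower, at 6.51-fold (a log2 ratio of 2.70). The gene reached only 1.53 CPM. ST6GAL1, which caps N-glycans, had 31 counts (1.83 CPM) in the resistant and 70 (4.16 CPM) in the parental library, 2.28-fold lower (1.47 to 3.60). ST6GALNAC6 (log2 ratio 0.29), ST6GALNAC4 (0.35) and ST6GALNAC2 (-0.09) were short of the rule. The polysialic acid enzyme ST8SIA4 was at 1.18 CPM in the resistant and 2.02 CPM in the parental library, and the other 5 ST8SIA genes had at most 5 counts in either library. ST6GAL2, ST6GALNAC1 and ST6GALNAC5 had at most 4.

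**Figure D2:**
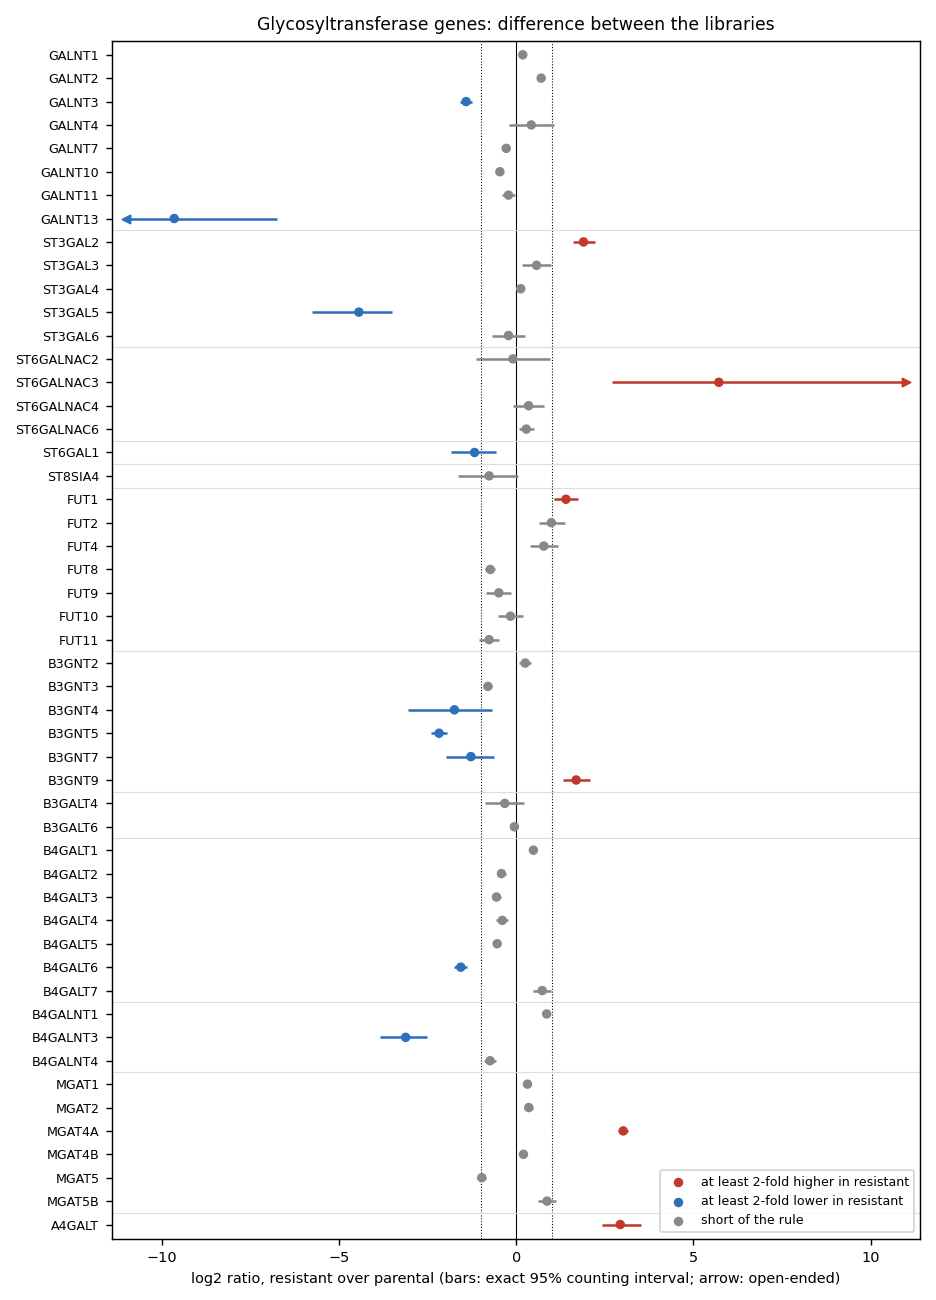
Log2 ratio, resistant over parental, of the 51 tested glycosyltransferases, with exact 95% counting intervals as bars and an arrow where an interval is open because 1 library has 0 counts; dotted lines mark 2-fold. The 6 higher genes (red) and the 9 lower genes (blue) are spread over 10 families.

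Among the enzymes that initiate mucin-type O-glycans, 2 of 8 tested genes were lower and 0 higher, against 8.29% lower and 12.1% higher over all tested genes. GALNT13, the closest relative of GALNT1 and best known from neurons, had 0 counts in the resistant and 396 (23.5 CPM) in the parental library. It was 133-fold lower when the 3 counts allowed by a count of 0 are set against the parental counts. The near end of its exact interval was 108-fold. GALNT3, known for protecting the hormone FGF23 from cleavage, had 390 counts (23.0 CPM) in the resistant and 1029 (61.1 CPM) in the parental library (log2 ratio -1.41, interval -1.58 to -1.24). GALNT2 was at 442 CPM in the resistant and 271 CPM in the parental library (log2 ratio 0.71), and GALNT1 at 264 and 232 CPM (0.19). GALNT10 (-0.46), GALNT7 (-0.28) and GALNT11 (-0.22) had ratios below 0, and GALNT4 had one of 0.43.

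Another 9 of the 17 GALNT genes were under the filter. GALNT5, GALNT8 and GALNT15 had 0 counts in both libraries. GALNT6, frequently described in carcinomas, had 11 counts in the resistant and 0 in the parental library, an interval that excluded 0 but a level of only 0.648 CPM. GALNT9, GALNT12, GALNT14, GALNT16 and GALNT18 had at most 3 counts. In GENCODE v29 the exons of GALNT4 overlap 5033 bases of the readthrough gene POC1B-GALNT4 on the same strand, which had 29 counts in the resistant and 105 in the parental library. How the authors split shared reads is not given in the sources used here, so the value of GALNT4 is uncertain.

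Among the 6 tested MGAT genes only MGAT4A was called, as higher, where 12.1% of all tested genes were higher and 8.29% lower. This enzyme, which with MGAT4B adds the GlcNAc branch on the core arm that MGAT1 opens, had 3750 counts (221 CPM) in the resistant and 458 (27.2 CPM) in the parental library. It was 8.12-fold higher (7.37 to 8.97), on the log2 scale the narrowest interval among the 6 higher genes. MGAT4B was at 461 CPM in the resistant and 400 CPM in the parental library (log2 ratio 0.21). On the per-length scale MGAT4B was still the higher of the pair, at 195 against 26.7 for MGAT4A in the resistant library and 169 against 3.29 in the parental one. MGAT5, whose branch carries long poly-LacNAc chains bound by galectins, was at 45.5 CPM in the resistant and 89.1 CPM in the parental library. Its log2 ratio of -0.97 lies just short of the rule. The 10 tested genes nearest to MGAT5 in RefSeq order had a median of -1.21, with 5 lower and 0 higher. Over the whole table, 0.96% of genes with 10 such neighbours had 5 or more lower. The part of that region in the level of MGAT5 was not tested. MGAT1 (0.32), MGAT2 (0.36) and MGAT5B (0.87) were short of the rule on the other side. MGAT3, which adds the bisecting GlcNAc, had 1 count in the resistant and 0 in the parental library, and MGAT4C and MGAT4D had 0 in both.

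MGAT4A stood inside a run of chromosome 2 genes that were higher in the resistant library. Of the 5 tested genes on each side of it in RefSeq order, 8 of 10 were at least 2-fold higher and all 10 had ratios above 0, with a median log2 ratio of 1.35. Over the whole table, 0.284% of the 11978 tested genes that have 10 such neighbours had 8 or more that were higher. The neighbours included UNC50 (1.63), COA5 (1.66), INPP4A (1.31), TMEM131 (1.39) and MITD1 (2.19). The run of consecutive ratios above 0 held 25 tested genes, from FAHD2B to RPL31, of which 19 were at least 2-fold higher. SEMA4C (-1.33) and TBC1D8 (-0.53) bounded it. The ratio of MGAT4A itself lay 1.67 above the median of its 10 neighbours on the log2 scale. The run was seen after its values were known. DNA was not measured here, and the part of the region in the level of MGAT4A was not tested.

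**Figure D3:**
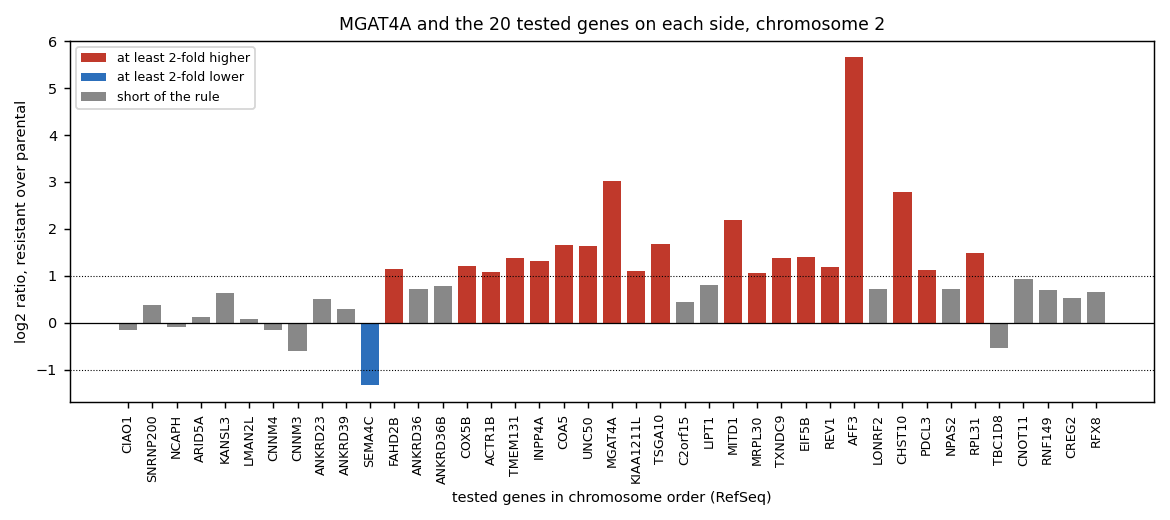
Log2 ratio, resistant over parental, of MGAT4A and the 20 tested genes on each side of it in chromosome order; bars in red are at least 2-fold higher, in blue at least 2-fold lower and in grey short of the rule. Ratios are above 0 from FAHD2B to RPL31, and MGAT4A exceeds all of its 10 nearest neighbours.

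Around the other called genes the neighbours' medians were nearer to 0. The median log2 ratio of the 10 neighbours (7 for B4GALNT3, near a chromosome end) lay between -0.63 and 0.14 for 12 of the other 14 called genes. Beside FUT1 it was 0.86, with 4 of 10 neighbours higher, and beside B4GALT6 it was -0.91, with 5 neighbours lower, among them the desmosomal genes DSC2, DSC3 and DSG2, and 3 higher. Of all genes with 10 neighbours, 6.06% had 4 or more neighbours higher and 0.96% had 5 or more lower. Around GALNT13, also on chromosome 2, the median was 0.07, with 1 neighbour higher and 0 lower. Around ST3GAL5, on the same chromosome, it was -0.09, with 1 higher and 0 lower. Chromosome 2 held 7 of the 51 tested genes, of which 1 was higher and 4 were lower. Of all 832 tested genes placed on it, 13.5% were higher and 9.86% lower.

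Among the 7 tested fucosyltransferases, those of the H antigen had the largest ratios above 0. FUT1, which makes the H antigen of red cells and of other tissues, had 273 counts (16.1 CPM) in the resistant and 102 (6.06 CPM) in the parental library, 2.65-fold higher (2.11 to 3.37). FUT2, the secretor enzyme and a neighbour of FUT1 on chromosome 19, was at 11.3 CPM in the resistant and 5.64 CPM in the parental library. Its log2 ratio of 0.99 lies just short of the rule. FUT4, which makes Lewis X structures, had a ratio of 0.78. The 10 tested genes nearest in RefSeq order had a median of 0.89 beside FUT2, with FUT1 among them, and of 0.92 beside FUT4. The part of these regions in the levels of FUT2 and FUT4 was not tested. FUT8, the core fucosyltransferase of N-glycans, was at 40.1 CPM in the resistant and 66.5 CPM in the parental library (-0.73). FUT11 (-0.76), FUT9 (-0.49) and FUT10 (-0.16) also had ratios below 0. The Lewis enzymes FUT3, FUT5 and FUT6 are related copies and had at most 3 counts. FUT7, the sialyl Lewis X enzyme of leukocytes, had 0 counts in both libraries.

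Chain-extending enzymes of the B3GNT family were lower for 3 of 6 tested genes and higher for 1, where 8.29% of all tested genes were lower and 12.1% higher. Beside B3GNT5, B3GNT4 had 9 counts in the resistant and 31 in the parental library, 3.47-fold lower (1.61 to 8.29). B3GNT7, known for keratan sulfate chains, had 28 counts in the resistant and 68 in the parental library, 2.45-fold lower (1.56 to 3.95). B3GNT9 was higher, with 265 counts (15.6 CPM) in the resistant and 81 (4.81 CPM) in the parental library, 3.24-fold (2.52 to 4.21). B3GNT3, which extends core O-glycans of mucins, was at 69.6 CPM in the resistant and 121 CPM in the parental library (log2 ratio -0.80), and the poly-LacNAc enzyme B3GNT2 was at 35.2 and 29.5 CPM (0.26). B3GNT6, which makes core 3 O-glycans, had 0 counts in the resistant and 3 in the parental library, and B3GNT8 had 0 in both.

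Some of these genes share exon bases with genes on the opposite strand in GENCODE v29, and the strand setting of the counting is not given in the sources used here. DIABLO, which overlaps B3GNT4, had a log2 ratio of -0.25, and C16orf70, which overlaps B3GNT9, one of -0.18. MCF2L2, which overlaps B3GNT5, had 4 counts in the resistant and 12 in the parental library. Reads of such pairs cannot be told apart without strand. Only these 3 of the 15 called genes overlap a gene of the table. ST3GAL2 shares 590 exon bases with AC012184.1 and B3GNT4 shares 799 with AC048338.1, opposite-strand genes that are not in the table.

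Galactosyltransferases had 1 called gene, B4GALT6, among 9 tested in the B4GALT and B3GALT families. It was lower, where 8.29% of all tested genes were lower and 12.1% higher. B4GALT1, the main enzyme of N-glycan antennae and a subunit of lactose synthase, was at 531 CPM in the resistant and 379 CPM in the parental library (log2 ratio 0.49). B4GALT2 (-0.42), B4GALT3 (-0.56) and B4GALT4 (-0.39) had ratios below 0. B4GALT7 and B3GALT6, which build the linker of glycosaminoglycans, had ratios of 0.73 and -0.05. B3GALT5, an enzyme of type 1 chains in gut epithelium, had 2 counts in the resistant and 11 in the parental library, with an interval below 0 but both levels under 1 CPM. B3GALT2 had 11 and 3 counts in the resistant and parental libraries, and B3GALT1 had 0 in both.

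LacdiNAc, a GalNAc-ended antenna, is made by B4GALNT3 and B4GALNT4. B4GALNT3 had 22 counts in the resistant and 193 in the parental library, 8.85-fold lower (5.68 to 14.4). B4GALNT4 was at 28.3 CPM in the resistant and 47.2 CPM in the parental library, a log2 ratio of -0.74. Both ratios were below 0, and 1 of them passed the rule. B4GALNT2, the Sda antigen enzyme of gut epithelium, had 4 counts in the resistant and 0 in the parental library.

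On the per-length scale the summed level of the GALNT genes was 243 in the resistant and 228 in the parental library, and that of the B4GALT genes was 233 in each. The MGAT genes summed to 306 in the resistant and 243 in the parental library, while the B3GNT genes summed to 50.1 and 76.2. The FUT genes summed to 26.4 in the resistant and 31.7 in the parental library.

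In these families and in ST3GAL, no called gene exceeded 18.6% of its family's sum in the parental library. This did not hold in every other family. ST6GAL1, a lower gene, made up 95.9% of the ST6GAL sum there, and A4GALT is the only gene of its family. B4GALNT3 made up 7.49% and ST6GALNAC3 0.00% of their families' sums in the parental library. GALNT13 made up 0.00% of the GALNT sum in the resistant and 1.82% in the parental library, and GALNT2 made up 41.3% and 26.9%. MGAT4A made up 8.75% of the MGAT sum in the resistant and 1.35% in the parental library. ST3GAL5 made up 0.32% of the ST3GAL sum in the resistant and 8.09% in the parental library. B3GNT5 made up 6.27% of the B3GNT sum in the resistant and 18.6% in the parental library, and FUT1 made up 14.6% and 4.56% of the FUT sum. Of the 8 genes at 100 CPM or more in both libraries, 0 were called. Over all tested genes, at any level, 12.1% were higher and 8.29% lower. The share called among all genes at that level was not computed, so the 0 has no like comparison. The cut also leaves out MGAT4A, at 221 CPM in the resistant and 27.2 CPM in the parental library.

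**Figure D4:**
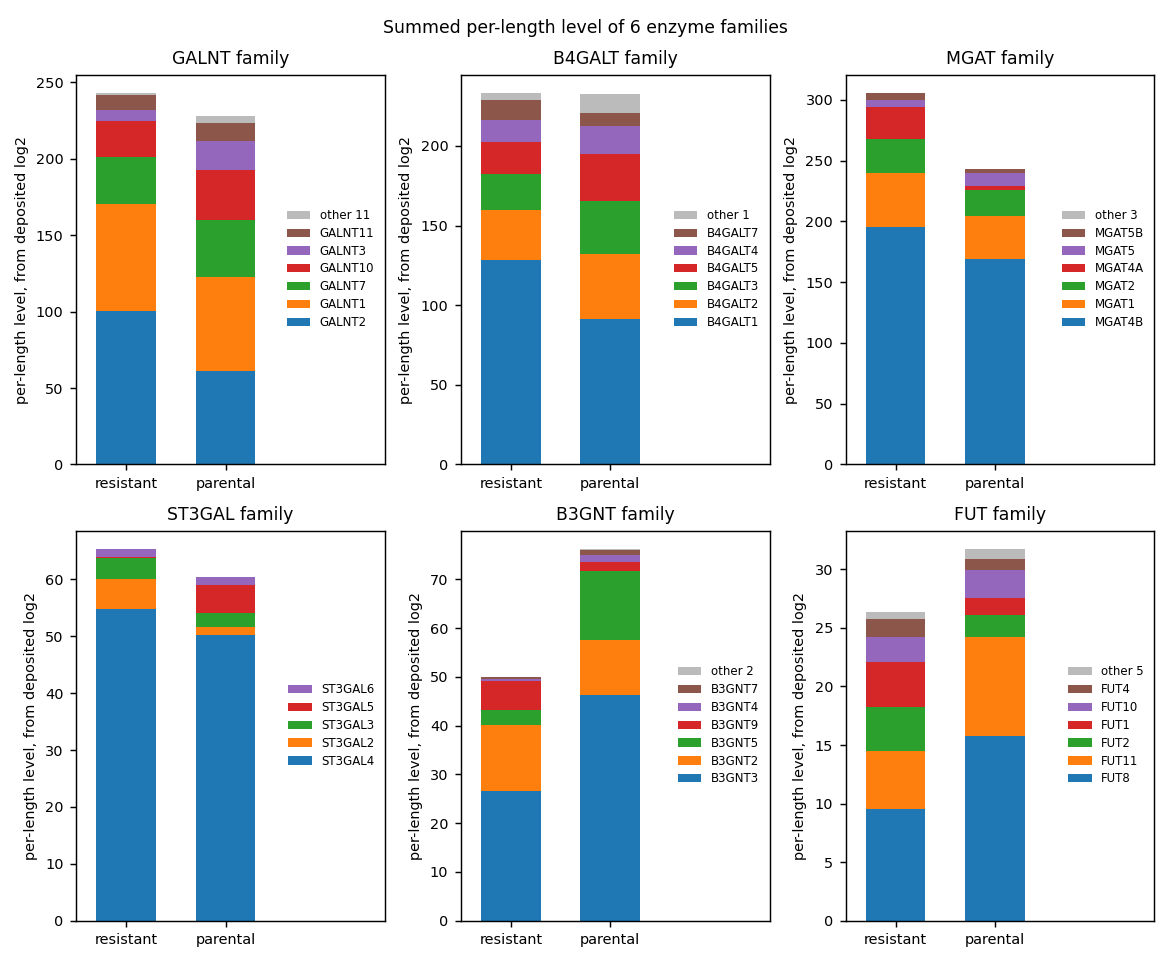
Stacked per-length levels (2 raised to the deposited log2 value, minus 1) in 6 enzyme families, the resistant library left of the parental one; each colour is 1 gene and grey sums the remaining genes. The GALNT and B4GALT bars are of like height in both libraries, the MGAT bar is higher and the B3GNT and FUT bars are lower in the resistant library.

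Other genes of glycosylation were described in 9 lists, with 102 tested genes in all. Of these, 8 were at least 2-fold higher and 4 lower in the resistant library, which is 7.84% and 3.92%, both below the 12.1% and 8.29% of all tested genes, and their median log2 ratio was 0.06. Among the supply routes, 0 of 9 tested genes of sialic acid synthesis, transport and removal were called, with GNE, the entry enzyme, at -0.08 and the transporter SLC35A1 at 0.34. None of 16 tested genes of N-glycan transfer and trimming was called, with a median of -0.06, and none of 14 genes of Golgi organisation, with a median of 0.05. The linker and chain enzymes of glycosaminoglycans had 0 of 10 called and the galectins 0 of 3.

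Hexosamine and UDP-sugar supply had 3 of 19 genes higher and 1 lower, with a median of 0.23. By comparison 12.1% of all tested genes were higher and 8.29% lower. GFPT2, an isoform of the enzyme that starts hexosamine synthesis, had 619 counts (36.5 CPM) in the resistant and 69 (4.10 CPM) in the parental library, 8.90-fold higher (6.93 to 11.6). The isoform GFPT1 was at 307 and 261 CPM in the resistant and parental libraries. UGDH, which makes UDP-glucuronic acid, was at 473 CPM in the resistant and 107 CPM in the parental library, 4.43-fold higher (4.21 to 4.66). GALT (1.35), an enzyme of galactose use, was also higher, and the nucleotide sugar transporter gene SLC35D1 (-1.13) was lower.

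Glycosphingolipid genes outside the 12 families had 3 of 11 tested genes higher and 1 lower, with a median of 0.71. The shares over all tested genes were 12.1% higher and 8.29% lower. B3GALNT1, which extends the Gb3 made by A4GALT to globoside, had 316 counts (18.6 CPM) in the resistant and 12 (0.713 CPM) in the parental library, 26.1-fold higher (14.7 to 51.1). It was under 1 CPM in the parental library and was tested through the resistant one. The transcripts of both successive globo enzymes were thus higher in the resistant library. HEXA, a subunit of the enzyme that degrades GM2, was 5.63-fold higher (4.75 to 6.71), at 53.2 CPM in the resistant and 9.45 CPM in the parental library. UGT8 (1.03) was higher, and PSAP, the precursor of the saposins, was lower at 495 CPM in the resistant and 1094 CPM in the parental library (-1.15). UGCG, which makes the glucosylceramide that lactosylceramide is built from, was at 138 and 96.8 CPM (0.52).

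For O-glycan cores, 2 of 6 tested genes were higher and 0 lower, against 12.1% higher and 8.29% lower over all tested genes. GCNT1, the core 2 enzyme, had 108 counts in the resistant and 39 in the parental library (log2 ratio 1.45), and the mucin type core 2 enzyme GCNT3 had 51 and 6 (2.97). C1GALT1, which makes core 1, was at 56.0 CPM in the resistant and 77.8 CPM in the parental library (-0.48), and its chaperone C1GALT1C1 had a ratio of -0.63. In the fucose list 2 of 14 genes were lower and 0 higher. These were LFNG, with 16 counts in the resistant and 130 in the parental library, and MFNG, with 6 and 57. Both are Fringe enzymes, which lengthen O-fucose on Notch receptors. LFNG (0.94 CPM) and MFNG (0.35 CPM) were under 1 CPM in the resistant library, and GCNT3 (0.36 CPM) in the parental one. Each was tested through the other library, which fixed its direction though not its size. RFNG, the third Fringe, had a ratio of 0.30, and POFUT1, which adds that fucose, one of 0.44.

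**Figure D5:**
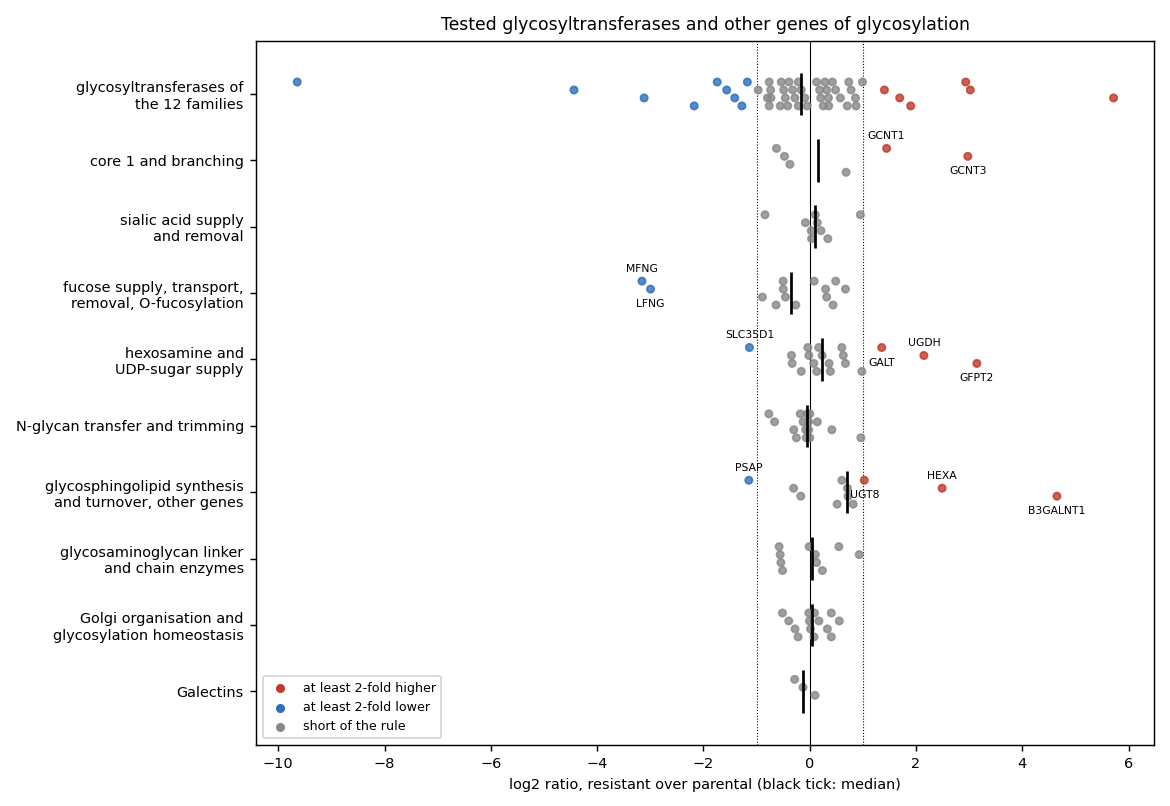
Log2 ratio, resistant over parental, of the 51 tested glycosyltransferases and of the tested genes of 9 lists of other glycosylation genes, with the median as a black tick and 2-fold as dotted lines. Named points are the called genes of the lists; sialic acid supply, N-glycan transfer and trimming, glycosaminoglycan, Golgi and galectin genes all lie within 2-fold.

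Promoter windows were in the RefSeq table for 58 of the 81 genes. The median number of CpG dinucleotides in the 250 bases was 33 over the 3 higher genes with a window, 25.5 over 6 lower genes, 21 over 30 genes short of the rule and 15 over 19 genes under the filter. Over all windows it was 11. These ranges overlapped, from 3 to 33 in the higher genes, 1 to 29 in the lower genes and 1 to 34 in those under the filter.

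The libraries had 17086748 counts in the resistant and 16723181 in the parental line, so 3 counts correspond to 0.177 and 0.178 CPM. Of the 5 lung epithelial markers, NKX2-1 was at 5.95 CPM in the resistant and 4.16 CPM in the parental library, and SFTPB, SFTPC, NAPSA and SCGB1A1 had at most 2 counts. The 6 epithelial markers summed to 8383 CPM in the resistant and 7707 CPM in the parental library, with a median log2 ratio of -0.29. EPCAM was lower (-1.25), and CDH1 (-0.69) and KRT19 (-0.63) had ratios below 0. KRT8 (0.35), KRT18 (0.33) and KRT7 (0.05) had ratios above 0. The 6 fibroblast markers summed to 14.7 and 20.7 CPM, nearly all from COL1A1, and the 6 leukocyte markers to 2.65 and 1.78 CPM, with CD3E and TYROBP at 0. Among the leukocyte markers CD14 was higher, with 33 counts in the resistant and 5 in the parental library, and PTPRC lower, with 7 and 21. CD14 was under 1 CPM in the parental library and PTPRC in the resistant one, which fixed their direction. The 4 endothelial markers summed to 29.2 CPM in the resistant and 0.356 CPM in the parental library. CDH5 alone gave 495 of the resistant counts, and PECAM1, VWF and TEK had at most 1 count.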

How the data were processed

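RNA was sequenced from 1 resistant and 1 parental H1993 library. Per the file headers, the authors deposited raw counts per gene symbol and normalized log2 values. Per the submitters' processing notes, FastQC and STAR were used and both GRCh38 and hg19 are named; the counting program, annotation and strand setting are not given in the sources used here. Counts were scaled with edgeR 4.0.16 (trimmed mean of M-values, TMM, R 4.3.3) to effective sizes of 16974207 in the resistant and 16834058 in the parental library. Log2 ratios, resistant over parental, add 0.5 to each count. Exact 95% conditional binomial (Clopper-Pearson) intervals used scipy 1.17.1, and folds use the counts without that addition. Reads are not independent molecules, so intervals cover counting error only. The calling was tested on simulated counts that held counting error only, so that test does not bear on variation between cultures. Called genes are named with values, and the others by level, ratio or range. Gene order and promoters came from RefSeq GRCh38.p14, which placed all 81 genes, and exon overlaps from GENCODE v29. The genes and lists were chosen with earlier results of these data known. Alternatives were DESeq2 1.42.0 size factors, total counts, other filters, 1 added to each count, the deposited log2 values, and stricter call rules.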

Additional observations from a re-analysis of the deposited data

How the results depend on the processing

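Across 2 other scalings, 3 other filters and 1 added to each count, the higher glycosyltransferases numbered 5 to 7 and the lower ones 6 to 10. The number tested ranged from 42 with at least 5 CPM to 71 with no filter. Over all genes the same settings gave 1000 to 1702 higher and 748 to 1102 lower, of 10665 to 15234 tested. FUT2 joined the higher ones with DESeq2 size factors (log2 ratio 1.00). Taken from the deposited log2 values, the counts were 4 and 6; FUT1 (0.98), ST6GALNAC3 (0.71), B3GNT4 (-0.76), B3GNT7 (-0.55) and ST6GAL1 (-0.46) did not pass. ST6GALNAC3 and ST6GAL1 were under 1 in both libraries on that scale, where a difference of 1 is not attainable. Over all genes these values gave 926 higher and 591 lower. A 4-fold rule gave 3 higher and 4 lower glycosyltransferases, and 774 and 359 over all genes. A whole interval beyond 2-fold gave 6 and 6, and 1097 and 655 over all genes. With no filter the median over the glycosyltransferases was 0.19, and with at least 5 CPM it was 0.04, so its sign depends on the filter. No sign of a called gene reversed. No paired analysis was possible because each group has 1 library. Depth limits the genes under about 1 CPM, where intervals span several-fold.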
